A study of Drosophila melanogaster with 7 samples.

Results

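The genes described here are 6 neuropeptide genes of the fly clock network (Pdf, Dh31, CNMa, CCHa1, ITP and Trissin) and 4 receptor genes (Pdfr, Dh31-R, CNMaR and CCHa1-R), chosen by name and making up 10 of the 16764 genes in the count matrices. They were measured by droplet single-cell RNA-seq in 7 libraries (runs 1 to 7), each made from pooled adult central brains without optic lobes of male flies from 5 to 9 inbred lines of the Drosophila Genetic Reference Panel (DGRP), 10 lines in all. The flies were wild type, were loaded at 4 to 8 days of age, and were kept in 12 h of light and 12 h of darkness. Animals that had slept, had recovered from sleep loss, had been awake, had been mechanically deprived of sleep or were yoked controls of such deprivation went into the pools, not each condition into every run, and runs 6 and 7 held flies put to sleep with gaboxadol, a GABA-A receptor agonist. By the deposited table, the flies of run 1 came from Zeitgeber times (ZT, hours after lights on) 8 and 20, those of runs 2 and 3 from ZT 2 and 20, those of run 4 from ZT 2 and 14, those of run 5 from ZT 20 and those of runs 6 and 7 from ZT 8. No table used here joins a cell to its line, sleep state or ZT time, so the labels give 1 group of 7 libraries, and the comparisons are between cells of the same library.

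A small set of neurons of the fly brain runs a transcriptional clock in which CLK and CYC switch on per and tim, whose proteins then repress them. These clock neurons fall into lateral and dorsal groups that differ in their peptides. PDF, released by lateral neurons, acts on the G protein-coupled receptor PDFR and keeps the network in step. DH31, the relative of mammalian calcitonin gene-related peptide, acts on DH31-R and can also activate PDFR. CNMa and CCHa1 are peptides of dorsal clock neurons and of other cells, each with its own receptor (CNMaR and CCHa1-R). ITP, ion transport peptide, is a hormone of water balance that a few lateral clock neurons also make, and Trissin is a cysteine-rich peptide whose receptor is TrissinR.

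Pdf (FBgn0023178) is a single-exon gene at 3R:26455462-26456141, Trissin (FBgn0038343) has 3 exons at 3R:15484730-15485396 and CCHa1 (FBgn0038199) lies at 3R:14092504-14096835. Dh31 (FBgn0032048) lies at 2L:8491868-8506845, where Bace overlaps it on the same strand, so reads in the overlap cannot be assigned to 1 of both genes with certainty. CNMa (FBgn0035282, listed in the files as CG13936) lies at 3L:1850915-1855591 and ITP (FBgn0035023) at 2R:24537421-24558961, with CG4622 on the opposite strand. Of the receptors, Pdfr (FBgn0260753) lies at X:2552206-2578640, Dh31-R (FBgn0052843) at 2R:13267798-13295927, CNMaR (FBgn0053696, listed as CG33696) at 3L:9644109-9659433 with fry on the opposite strand, and CCHa1-R (FBgn0050106) at 2R:17646848-17665068. All positions are on BDGP6 and span protein-coding genes with their exons, introns and untranslated regions. All 10 genes passed the filter on low counts in every comparison between cell types.

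The runs held 49949595 (run 7) to 311443505 (run 2) unique molecular identifiers (UMIs, 1 per captured transcript), with medians of 3893 to 6787 UMIs per cell and 9357 to 33716 cells per run after filters. Of 143572 cells, 127629 lay in neuronal clusters. The member genes were kept out of the clustering, and 2 of 334 clusters were named clock neurons from their core clock genes, with 650 cells in all and 45 to 158 per run. At least 2 of Clk, tim, cry and per were detected in 66.9% of these cells, against 1.34% of the other neurons. Across libraries, 2311 barcode sequences of cells occurred in 2 or more runs. Levels are given as counts per 1000000 UMIs (CPM) of the summed cells of a run.

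Few cells carried most of the UMIs of each peptide gene, while single UMIs were spread widely. Pdf was detected with at least 1 UMI in 12.1% of all cells and ITP in 35.5%. Among Kenyon cells, the intrinsic neurons of the mushroom body, the share with a Pdf UMI ran between 0.411% and 20.5% over the runs and that with an ITP UMI between 3.40% and 62.6%. Low counts may be RNA freed from lysed cells, so a cell was counted as a peptide cell only from 20 UMIs of that gene. By this limit there were 33 Pdf cells, 3962 Dh31 cells, 42 CNMa cells, 166 CCHa1 cells, 188 ITP cells and 24 Trissin cells. They held 95.5% of all Pdf UMIs, 79.2% of those of Dh31, 88.0% of CNMa, 81.8% of CCHa1, 87.0% of ITP and 89.6% of Trissin. Among them, 2 Pdf cells and 6 Dh31 cells shared a barcode sequence with a cell of the same peptide in another run. Whether any of these was counted in more than 1 run was not tested.

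The members just inside the limit had 23, 23 and 27 UMIs for Pdf and those just outside it 19, 19 and 16 UMIs. For Trissin the values next to the limit were 22, 31 and 32 UMIs inside and 15, 9 and 9 UMIs outside, and for CNMa 21, 21 and 22 UMIs inside and 19, 16 and 14 UMIs outside. For Dh31 and CCHa1 they were 20 UMIs inside and 19 UMIs outside in all 3 cells on each side, and for ITP 20, 20 and 21 UMIs against 19 UMIs. Dh31, CCHa1 and ITP thus formed a continuum across the limit. They had 2273, 83 and 170 cells from 10 to 19 UMIs and 2141, 83 and 79 cells from 20 to below 50 UMIs. Cells in these ranges were fewer for Pdf (15 and 7 cells), CNMa (5 and 13) and Trissin (1 and 5). The limit did not set Pdf cells apart, since more cells lay just below it than just above it.

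Peptide cells were deep cells. Their median total was 22992 UMIs for Pdf, 22960 UMIs for Trissin, 18216 UMIs for CNMa, 16698 UMIs for ITP, 10949 UMIs for CCHa1 and 10336 UMIs for Dh31, against 5896 UMIs in the neurons set beside the Pdf cells. A limit in UMIs selects for depth by itself, and the part of depth in the differences between peptide cells and other neurons was not tested. With the called doublets kept, the counts were 35 Pdf cells, 4343 Dh31 cells, 42 CNMa cells, 177 CCHa1 cells, 203 ITP cells and 25 Trissin cells.

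Pdf transcripts reached 66.7% of all UMIs in the most extreme cell, and those of ITP and Trissin 46.2% and 24.6%. The highest share of a cell was 9.19% for Dh31, 2.21% for CCHa1 and 1.17% for CNMa. Within the clock clusters, the 11 Pdf cells held a median of 3873 Pdf UMIs (581 to 9874), and the 22 Pdf cells elsewhere 370 UMIs (23 to 62766). The 14 Trissin cells of the clock clusters had 2276 Trissin UMIs (673 to 3518), and the 10 cells elsewhere 467.5 UMIs (22 to 43859). The lowest Pdf and Trissin cells of the clock clusters lay far above the limit, and both genes also had cells elsewhere with more UMIs than any clock cell.

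For ITP, the 13 cells of the clock clusters had a median of 4889 UMIs (55 to 11525), and the 175 cells elsewhere 57 UMIs (20 to 27707). The 12 CCHa1 cells of the clock clusters had 212.5 UMIs (134 to 470), and the 154 elsewhere 42 UMIs (20 to 389). CNMa reached 112 UMIs (21 to 358) in 37 cells of the clock clusters and 58 UMIs (22 to 85) in 5 cells elsewhere. Dh31 reached 73 UMIs (21 to 468) in 46 cells of the clock clusters and 45 UMIs (20 to 2957) in 3916 cells elsewhere. All 6 medians were higher in the clock clusters, with ranges that overlapped those of the cells elsewhere. The peptide cells of the clock clusters were also deeper. Their median totals were 23755 against 9099 UMIs for Pdf, 18930 against 10275 UMIs for Dh31 and 19146 against 10199 UMIs for CNMa. They were 19046.5 against 10170.5 UMIs for CCHa1, 30471 against 14784 UMIs for ITP and 23353.5 against 20216.5 UMIs for Trissin. The part of depth in the higher medians was not tested.

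**Figure D1:**
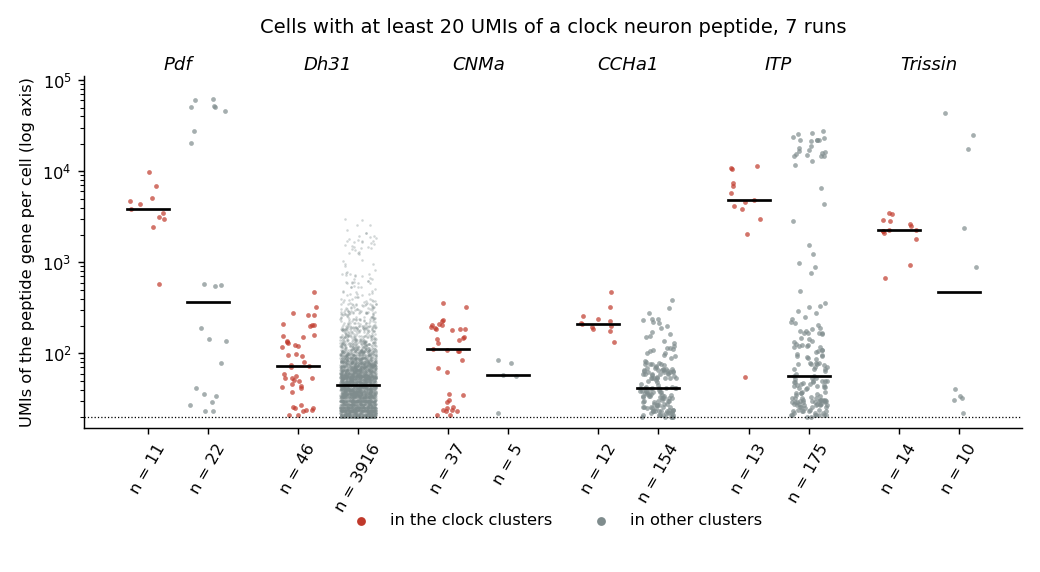
UMIs of each peptide gene per cell (log axis) in cells with at least 20 UMIs, for cells of the clock clusters (red, left) and cells elsewhere (grey, right). Each point is a cell, the black line is the median and the dotted line the limit of 20 UMIs. The medians of the clock cells (3873 UMIs for Pdf, 112 UMIs for CNMa) lie above those of the cells elsewhere (370 and 58 UMIs). The clock cells also have more UMIs in all, and the values are not corrected for this.

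The peptides differed in how far they were confined to clock clusters. CNMa was the most confined, with 88.1% of its cells there, followed by Trissin with 58.3%, Pdf with 33.3%, CCHa1 with 7.23%, ITP with 6.91% and Dh31 with 1.16%. These are shares of cells in the named clusters, and clock neurons grouped elsewhere are not counted in them. In the clock clusters, at least 2 of Clk, tim, cry and per were detected in 36 of 37 CNMa cells, 14 of 14 Trissin cells, 12 of 12 CCHa1 cells, 12 of 13 ITP cells, 10 of 11 Pdf cells and 43 of 46 Dh31 cells. Elsewhere the same held for 9 of 22 Pdf cells, 2 of 10 Trissin cells, 0 of 5 CNMa cells, 8 of 154 CCHa1 cells, 11 of 175 ITP cells and 203 of 3916 Dh31 cells. Pdf cells outside the clock clusters thus often still carried clock genes, while those of Dh31 (5.18%), CCHa1 and ITP seldom did.

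The 2 clock clusters held different peptides. Clock cluster 274 (211 cells) held all 11 Pdf cells, all 37 CNMa cells, all 14 Trissin cells and 12 ITP cells of the clock clusters. Clock cluster 204 (439 cells) held all 12 CCHa1 cells. In pooled counts, CNMa was at 1317 CPM in cluster 274 and at 1.7 CPM in cluster 204, whereas CCHa1 was at 0.3 CPM in cluster 274 and at 820 CPM in cluster 204. The same was seen library by library. CNMa in cluster 274 was at 1346, 1124, 1926, 633, 1237, 240.1 and 2479 CPM in runs 1 to 7, and CCHa1 in cluster 204 at 1105, 933, 1340, 410.3, 4.44, 746 and 0 CPM, near 0 in runs 5 and 7.

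Pdf-expressing cells elsewhere were concentrated in 1 other cluster. Of the 22, 8 lay in cluster 213, an unnamed neuron cluster of 165 cells whose leading genes include the peptide genes natalisin, Dsk, SIFa and Lk. These 8 cells had a median of 87452 UMIs in all, with Pdf at 556243 CPM, cry, the blue light receptor of the clock, at 299 CPM and tim at 179 CPM. The same cluster held 3 Trissin cells, with Trissin at 208246 CPM and AstC, an inhibitory peptide, at 255622 CPM. Such cells share a cluster whose other members carry other peptides at high levels, and whether some are doublets or were grouped by depth was not tested. A further 2 Pdf cells lay in cluster 230, also unnamed neurons, and 3 of the 33 were not in neuronal clusters.

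ITP cells elsewhere had 3 main locations. The cluster of insulin-producing cells, named from Ilp2, Ilp3 and Ilp5, held 39 ITP cells among 212 (18.4%). These 39 had ITP at 209654 CPM but Ilp2 at 216 CPM, against 55.5 CPM ITP and 54610 CPM Ilp2 in the other 173 cells. They also held sNPF at 9082 CPM, Tk at 3673 CPM, Lk at 890 CPM and Crz at 43435 CPM, which encode short neuropeptide F, tachykinin, leucokinin and corazonin. High ITP and high Ilp2 thus fell on different cells of the cluster. A further 21 ITP cells made up most of the 23 cells of cluster 323, where Dh31 stood at 46128 CPM, and 16 lay in cluster 52, a cluster of 64 cells led by Crz. Perineurial glia, the outer sheath of the brain, held 13 ITP cells of 912.

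Dh31 cells were found across the brain. Ellipsoid body (EB) ring neurons, which carry heading and sleep drive signals, had 862 Dh31 cells among 1774 (48.6%). Of the 5 EB ring clusters, cluster 137 had 478 of 542 cells past the limit and cluster 147 had 248 of 296. Octopaminergic neurons had 69 of 439. In cluster 222, led by NPF among its peptide genes, 214 of 499 cells were Dh31 cells and 37 were CCHa1 cells. Dh31 was at 4533, 2901, 2969, 2766, 3395, 3536 and 4093 CPM in EB ring neurons of runs 1 to 7, against 805, 709, 627, 804, 184, 976 and 2706 CPM in clock neurons. The EB ring value was above the clock value in all 7 runs.

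Cells with 20 UMIs of 2 peptides occurred only in pairs with Dh31. Dh31 and CNMa shared 25 cells, all in clock clusters and in 6 runs, which is 59.5% of the CNMa cells and 0.631% of the Dh31 cells. Dh31 and CCHa1 shared 38 cells in 7 runs, 22.9% of the CCHa1 cells, with 0 in clock clusters. Dh31 and ITP shared 25 cells, 13.3% of the ITP cells, 1 of them in a clock cluster. Dh31 shared 4 cells with Pdf and 1 with Trissin. The part of undetected doublets in these shared cells was not tested. In the other 10 of 15 pairs 0 cells were shared, which allows a share of up to 12.5% of the 24 Trissin cells, 9.09% of the 33 Pdf cells, 7.14% of the 42 CNMa cells or 1.81% of the 166 CCHa1 cells.

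Further peptides were present in the peptide cells of the clock clusters, some of them in more than 1 group. Of the 13 ITP cells, 11 held at least 20 UMIs of NPF (neuropeptide F). Of the 11 Pdf cells, 8 held sNPF at that level, 72.7% against 3.85% of other neurons, and 7 of the 14 Trissin cells did so. AstC, encoding allatostatin C, passed 20 UMIs in 23 of the 37 CNMa cells and 26 of the 46 Dh31 cells. Nplp1, a peptide precursor, passed it in 7 of the 12 CCHa1 cells, 6 of the 46 Dh31 cells, 5 of the 37 CNMa cells and 2 cells each of Pdf and Trissin. Elsewhere, ITP cells held sNPF in 54, Tk in 33 and Lk in 19 of 175 cells, Trissin cells held AstC in 4 and sNPF in 3 of 10, and Pdf cells held Gpb5, a glycoprotein hormone subunit, in 7 of 22.

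Across runs, the number of Pdf cells was 5, 7, 9, 6, 2, 3 and 1, and of Trissin cells 3, 6, 5, 7, 1, 2 and 0. As shares, Pdf cells made up 1.07 to 3.34 of 10000 cells and Trissin cells 0 to 2.57, where the 0 of run 7 allows up to 3.94 by its exact 95% interval. CNMa cells numbered 4, 11, 11, 7, 5, 1 and 3 (0.742 to 4.08 of 10000). CCHa1 cells numbered 16, 32, 41, 24, 23, 23 and 7 (7.48 to 18.1 of 10000). ITP cells numbered 18, 40, 31, 69, 18, 10 and 2 (2.14 to 25.3 of 10000). Dh31 cells numbered 580, 960, 819, 646, 352, 418 and 187 (199.9 to 310 of 10000). ITP thus varied most among the peptides with over 100 cells and Dh31 least. Runs differ in line, ZT, sleep state and depth together, so these cannot be told apart, and no test was made between runs.

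**Figure D2:**
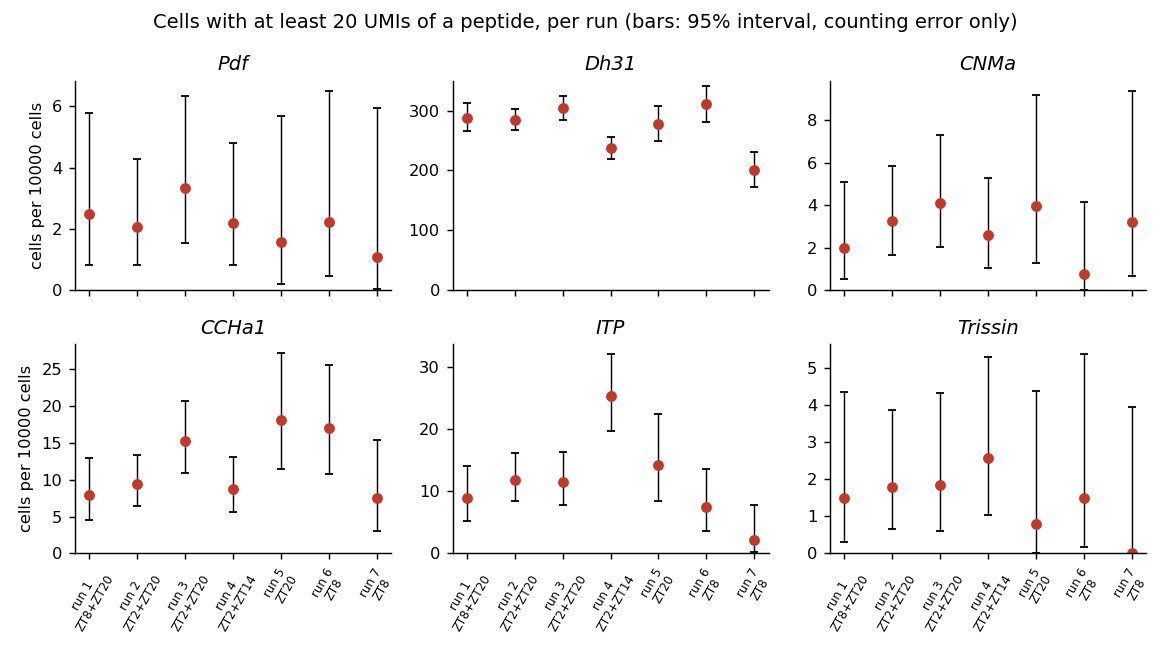
Cells with at least 20 UMIs of each peptide gene per 10000 cells in runs 1 to 7, with exact 95% binomial intervals that cover counting error only. The ITP share is highest in run 4 (25.3) and lowest in run 7 (2.14), and the Dh31 share stays between 199.9 and 310.

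A few cells set the level of a peptide in a whole library. Over all cells, Pdf was at 497, 52.0, 509, 258, 1495, 20.7 and 1261 CPM in runs 1 to 7. Without the 1 to 9 Pdf cells of a run it was at 15.6, 20.6, 15.8, 30.1, 11.8, 1.15 and 10.6 CPM. In clock neurons Pdf was at 7884, 4716, 15622, 2628, 10.1, 1235 and 19.9 CPM. Runs 5 and 7 had no Pdf cell in a clock cluster and the highest Pdf level over all cells, so that these levels do not stand for the clock neurons.

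Likewise, Trissin was at 2578, 3991, 2964, 10007, 7116, 4848 and 0 CPM in clock neurons, with 1, 3, 3, 5, 1, 1 and 0 Trissin cells. ITP was at 12586, 9456, 8795, 14847, 29425, 21.3 and 17.0 CPM, with 1, 3, 3, 4, 2, 0 and 0 ITP cells. CNMa was at 696, 559, 1098, 334, 673, 85.1 and 772 CPM in clock neurons, the only one of the 6 with a peptide cell in every clock sample besides Dh31. CCHa1 was at 534, 469, 576, 195, 2.02, 515 and 0 CPM. In such sums fewer cells of a type and less RNA per cell cannot be told apart without the cell counts beside them.

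Receptor levels were compared between each marker-defined cell type and the other neurons of the same run (for glia, all neurons) by edgeR's quasi-likelihood test with run as a block and Benjamini-Hochberg adjustment over all genes tested. Since libraries are pools of brains, p-values measure the spread between these 7 libraries. Of 56 pairs of a receptor and a type, 39 passed an adjusted p of 0.05, 13 of them higher and 26 lower in the type. Among all genes tested, 41.4% passed for clock neurons, 45.1% for EB ring neurons, 33.3% for non-PAM dopaminergic, 32.6% for PAM dopaminergic, 36.9% for octopaminergic, 38.3% for serotonergic, 25.3% for tyraminergic and 56.8% for insulin-producing cells. The shares were 62.7% for adPN (anterodorsal projection neurons of the antennal lobe), 67.6% and 64.7% for γ and α′/β′ Kenyon cells (KCs), 47.5% for astrocyte-like, 62.7% for ensheathing and 63.7% for perineurial glia. A call by itself is thus common, and the direction, size and order across types carry the description.

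Pdfr, the PDF receptor, was highest in clock neurons among the types tested. It was at 290, 294, 419, 295, 279, 285 and 162 CPM in clock neurons of runs 1 to 7, against 21.5, 28.3, 33.8, 34.98, 27.3, 27.3 and 23.8 CPM in the other neurons. The groups did not overlap, and the lowest clock value (run 7) was over the highest of the other neurons. Pdfr averaged 289 ± 74.5 CPM in clock neurons and 28.1 ± 4.87 CPM in other neurons (SD, n = 7 runs each), a log2 difference of 3.36 ± 0.10 (SE; adjusted p = 8.58e-14 by edgeR's quasi-likelihood test). An exact permutation test that flips the sign of each run's difference, two-sided over 7 runs, gave p = 0.0156, the smallest that 7 runs allow.

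After each cell was thinned to 500 UMIs, 10.7% of clock neurons kept a Pdfr UMI, against 1.43% of other neurons and 0.376% of KCs. Without thinning the shares were 59.1%, 13.6% and 4.44%, at median depths of 8326 UMIs in clock neurons and 5822 UMIs in γ KCs. Both clock clusters carried Pdfr. It was at 411, 451, 578, 423, 446, 542 and 282 CPM in cluster 274, against 161, 138, 209, 151, 79.9, 169 and 107 CPM in cluster 204, with cluster 274 higher in all 7 runs.

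EB ring neurons came next for Pdfr, at 108, 98.4, 150, 142, 169, 141 and 57.1 CPM in runs 1 to 7, also above the other neurons in every run. The log2 difference was 2.17 ± 0.11 (adjusted p = 3.36e-10 by edgeR's quasi-likelihood test). The clock value exceeded the EB ring value in all 7 runs. The 5 EB ring clusters differed widely. Pdfr was at 559, 802, 626, 683, 783, 667 and 497 CPM in cluster 165 (43 cells, with cry at 204 CPM) and at 342, 326, 396, 322, 440, 403 and 196 CPM in cluster 147. It was at 29.1, 40.8, 87.5, 44.4, 29.3, 55.7 and 66.0 CPM in cluster 137, which makes Dh31 like cluster 147, and between 0 and 27.5 CPM in cluster 181. Pdfr in EB ring neurons was thus a property of some clusters, and cluster 165 was above both clock clusters in pooled counts (692 CPM, against 477 and 156 CPM).

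Pdfr was lower than in other neurons in the other 10 of 12 called types. PAM dopaminergic neurons averaged 9.52 CPM (log2 difference -1.25), octopaminergic neurons 12.0 CPM (-1.54), insulin-producing cells 10.9 CPM (-0.96), serotonergic neurons 17.4 CPM (-0.67) and adPN 20.01 CPM (-0.62). γ KCs were at 6.79 CPM (-2.04) and α′/β′ KCs at 5.24 CPM (-2.16), levels at which free RNA cannot be told apart from expression. In perineurial glia the difference was -1.19. Tyraminergic neurons (6 runs; -0.78, adjusted p = 0.0199) and astrocyte-like glia (-0.76, adjusted p = 0.0424) were near the threshold. The tyraminergic call was lost without run 3 (-0.45, adjusted p = 0.285) and without the run block (-0.63, adjusted p = 0.179), and the call of astrocyte-like glia under 8 alternatives. That of insulin-producing cells was lost at resolution 16 (adjusted p = 0.0553). In the insulin-producing cluster Pdfr was at 6.57, 1.60, 2.62, 0 and 0 CPM in the ITP cells of runs 1, 3, 4, 5 and 6. The other cells of the cluster had 11.6, 20.9, 20.5, 46.5 and 0 CPM. Non-PAM dopaminergic neurons (30.1 CPM, adjusted p = 0.790) and ensheathing glia (22.0 CPM, adjusted p = 0.681) did not pass.

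Dh31-R, the DH31 receptor, was not higher in clock neurons. It was at 10.4, 11.5, 9.31, 12.9, 18.2, 19.1 and 22.7 CPM in clock neurons and averaged 16.9 ± 1.32 CPM in other neurons (SD, n = 7), a log2 difference of -0.41 that did not pass (adjusted p = 0.0539 by edgeR's quasi-likelihood test). The clock neurons were lower in 5 of 7 runs and higher in runs 5 and 7. Without run 5, 6 or 7 the difference passed, at adjusted p = 0.0256, 0.0472 and 0.0225 and a log2 difference of -0.49 without run 5.

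Among single clusters, Dh31-R was highest in an unnamed neuron cluster of 136 cells, at 117 CPM in pooled counts. Among the types tested, it was highest in EB ring and non-PAM dopaminergic neurons. EB ring neurons had 43.9, 33.8, 47.5, 38.1, 35.01, 59.9 and 43.4 CPM, all above any value of the other neurons, with a log2 difference of 1.40 ± 0.09 (adjusted p = 5.81e-09). Non-PAM dopaminergic neurons averaged 39.2 ± 8.29 CPM (SD, n = 7; 1.24 ± 0.12, adjusted p = 1.36e-07), octopaminergic neurons 27.1 CPM (0.65, adjusted p = 0.00202) and serotonergic neurons 23.4 ± 3.02 CPM (0.39, adjusted p = 0.0166), all by edgeR's quasi-likelihood test. PAM dopaminergic neurons averaged 14.7 ± 3.41 CPM and did not pass (-0.13, adjusted p = 0.464). The serotonergic call was lost without run 2 (adjusted p = 0.0601) or run 4 (0.0743). Within the ring, cluster 147 stood at 71.3 to 107 CPM and cluster 137 at 22.8 to 62.9 CPM. Cluster 147, in which 83.8% of cells were Dh31 cells, thus held transcripts of peptide and receptor. Dh31-R was lower in adPN (-0.81), both KC types (-1.93 and -2.10), ensheathing glia (-1.16) and perineurial glia (-0.96).

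CNMaR was moderately higher in clock neurons, at 70.8, 52.4, 41.6, 61.2, 28.3, 53.2 and 105 CPM, against 43.2, 31.02, 33.7, 32.96, 35.1, 34.7 and 39.6 CPM in other neurons. Only run 5 was lower in the clock neurons. The log2 difference was 0.65 ± 0.12 (adjusted p = 0.000293 by edgeR's quasi-likelihood test), and the exact sign-flip permutation test over 7 runs gave p = 0.0469. The clock clusters divided here in the direction opposite to Pdfr, with CNMaR at 0 to 48.3 CPM over the runs in cluster 274, which holds the CNMa cells, and at 56.4 to 153 CPM in cluster 204. EB ring neurons averaged 46.1 ± 6.12 CPM (0.45 ± 0.07, adjusted p = 8.54e-05, higher in 6 of 7 runs), led by cluster 137 at 77.7 to 113 CPM, where cluster 147 had 0 to 19.6 CPM.

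Insulin-producing cells also passed for CNMaR (0.62, adjusted p = 0.0311) but were higher in only 3 of 7 runs. The call was lost without run 1 (0.41), 3 (0.55) or 4 (0.53), with DESeq2 (0.45) and at resolution 16 (0.04). Within that cluster CNMaR was at 237, 87.8, 73.4, 11.3 and 44.2 CPM in the ITP cells of runs 1, 3, 4, 5 and 6. Its other cells had 40.5, 28.1, 32.4, 33.8 and 17.6 CPM, so only run 5 was lower in the ITP cells. CNMaR was lower in adPN (-0.99), both KC types (-2.13 and -2.54), ensheathing glia (-1.36) and perineurial glia (-2.15), and the differences in the dopaminergic, octopaminergic, serotonergic and tyraminergic types did not pass. That of serotonergic neurons (0.33, adjusted p = 0.0545) passed without run 1 (0.46) or 6 (0.35). The highest level of CNMaR lay outside all named types, in a neuronal cluster of 1578 cells at 319 CPM, where the median cluster had 22.5 CPM.

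CCHa1-R was the rarest of the 4 receptors. Among single clusters it was highest in unnamed neurons, at up to 64.5 CPM in pooled counts. Among the types tested it was highest in the cluster of insulin-producing cells, the source of the insulin-like peptides. There it was at 24.1, 14.1, 22.8, 40.3, 51.7, 19.4 and 31.2 CPM, against 7.69 to 10.99 CPM in the other neurons. The groups did not overlap, and the log2 difference was 2.11 ± 0.22 (adjusted p = 1.90e-06 by edgeR's quasi-likelihood test). That cluster holds 2 kinds of cells, however, and CCHa1-R was at 73.8 CPM in its 39 ITP cells and at 7.6 CPM in its 173 other cells. With finer clustering (resolution 16) the difference of the cluster named insulin-producing was -0.95. PAM dopaminergic neurons averaged 22.6 ± 8.13 CPM (1.16 ± 0.13, adjusted p = 2.08e-06), and non-PAM dopaminergic neurons 14.6 CPM (0.76, adjusted p = 0.00289).

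In clock neurons CCHa1-R was at 32.5, 10.9, 25.2, 12.1, 16.2, 6.38 and 25.6 CPM, with run 6 below and 6 runs above the other neurons (1.07 ± 0.23, adjusted p = 0.00101 by edgeR's quasi-likelihood test). The exact sign-flip permutation test over 7 runs did not pass (p = 0.0625). Of thinned clock neurons 0.582% kept a CCHa1-R UMI, against 0.389% of other neurons and 0.0821% of KCs. CCHa1-R was lower in EB ring (-1.60), octopaminergic (-2.51), adPN (-0.75), γ KC (-2.32), α′/β′ KC (-2.67) and ensheathing glia (-1.65). The octopaminergic call was lost at resolutions 4 (-0.46) and 16 (-0.78). In perineurial glia the value did not pass (-0.89, adjusted p = 0.239), with run 6 at 51.3 CPM and the others at 0 to 3.82 CPM. Without run 6 it was -1.92 (adjusted p = 0.0007).

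**Figure D3:**
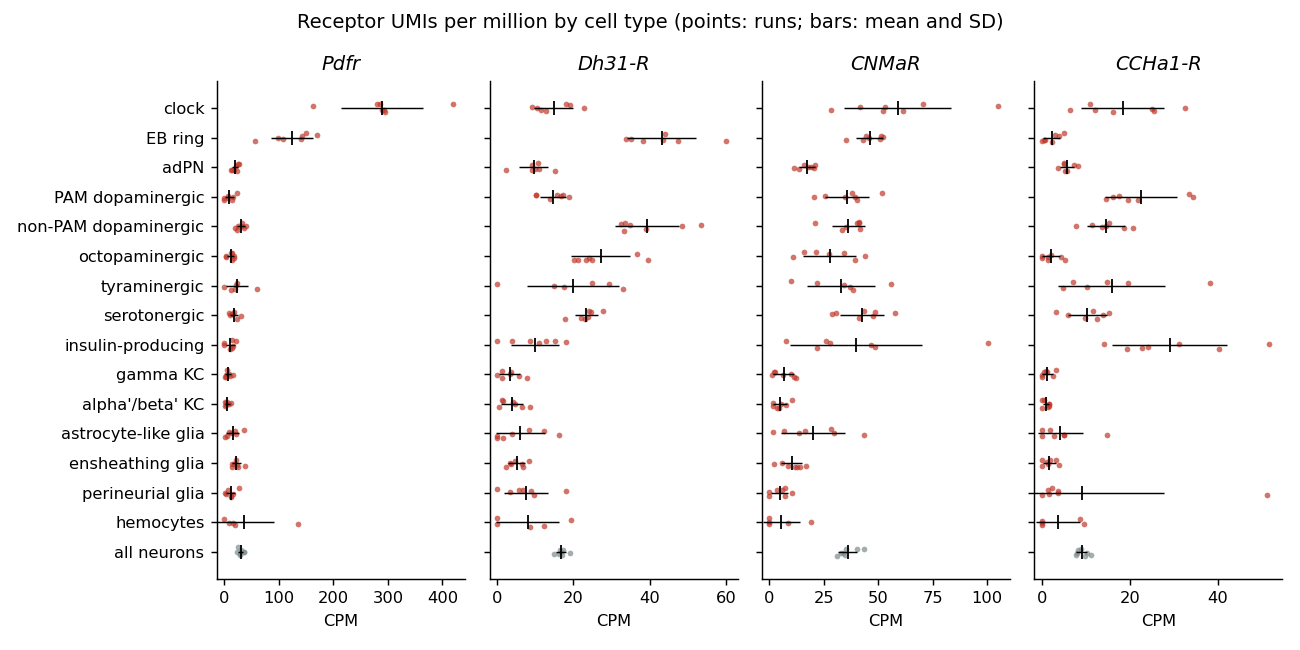
Levels of the 4 receptor genes (CPM, linear axes) in marker-defined cell types, clock neurons at the top and all neurons at the bottom. Points are runs and the bars give the mean and SD over runs. Pdfr is highest in clock neurons (289 CPM), Dh31-R in EB ring neurons (43.1 CPM) and CCHa1-R in the insulin-producing cluster (29.1 CPM), where 39 ITP cells had 73.8 CPM and the 173 others 7.6 CPM.

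Genes whose mean log2 CPM over 15 cell types ran most like that of a receptor were named by rank among 7267 genes. For Pdfr they were Dr, a homeobox gene (Pearson r = 0.79), Trissin (0.74) and per (0.74). For Dh31-R they were ssp6 (0.91), GABA-B-R3, a GABA receptor subunit (0.89), and CG31323 (0.86). For CNMaR they were fra, a netrin receptor (0.94), beat-Ia (0.93) and dpr11 (0.93), both encoding cell surface proteins. For CCHa1-R they were RYa-R, the receptor of the RYamide peptides (0.90), CG17193 (0.84) and CG8336 (0.82). These are descriptions over types that share libraries, and types of differing depth enter as single points.

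The peptide cells themselves were then examined for receptors, against the neurons of the same run with fewer than 20 UMIs of that peptide. The cells were chosen by the peptide's own UMIs, and every other gene is tested. Among all genes tested, 22.6% passed in CNMa cells, 14.3% in Trissin cells, 12.1% in Pdf cells, 32.8% in Dh31 cells, 41.9% in ITP cells and 4.47% in CCHa1 cells. Of 24 pairs of a peptide and a receptor, 15 passed, 12 higher and 3 lower. Pdfr was higher in all but the CCHa1 cells, and CNMaR was the receptor that was lower in 3 peptides.

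CNMa cells carried much Pdfr. In runs 1, 2, 3, 4, 5 and 7 they had 825, 1057, 1247, 536, 618 and 325 CPM, against 22.9, 29.4, 35.4, 36.2, 28.4 and 24.5 CPM in other neurons. The groups did not overlap in any run. The log2 difference was 4.58 ± 0.21 (adjusted p = 2.24e-15 by edgeR's quasi-likelihood test, 6 of 6 runs). Against the other clock neurons of the same runs, in 5 runs, CNMa cells had 817 ± 398 CPM and other clock neurons 222 ± 61.2 CPM (log2 difference 1.91 ± 0.20, adjusted p = 5.3e-05). All CNMa cells of the clock clusters lay in cluster 274, which had more Pdfr than cluster 204. The contrast thus includes the difference between the clusters, and a difference within cluster 274 was not tested.

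In contrast, CNMa cells had 24.3, 0, 7.56, 8.94, 0 and 0 CPM of CNMaR, the receptor of their own peptide, where other neurons had 31.2 to 43.4 CPM. This rests on 5 UMIs in 780740, a ratio of 0.177 to the mean of other neurons with an exact 95% Poisson interval of 0.0576 to 0.414, and the fitted log2 difference was -2.50 ± 0.51 (adjusted p = 0.000467). The direction was the same against other clock neurons (-3.03 ± 0.49, adjusted p = 0.000768). This contrast, too, includes the difference between the clock clusters, since CNMaR was lower in cluster 274 than in cluster 204. TrissinR was higher in CNMa cells (93.9 against 31.9 CPM; 1.49 ± 0.33, adjusted p = 0.00124, 4 of 6 runs), though not with DESeq2 (1.19, adjusted p = 0.0856). CCHa1-R also passed (31.8 against 8.95 CPM; 1.49 ± 0.49, adjusted p = 0.0270), but not without run 1 (0.86, adjusted p = 0.294), 3 (adjusted p = 0.0582) or 7 (adjusted p = 0.0517) nor with DESeq2 (adjusted p = 0.0557).

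Trissin cells were high in Pdfr as well, with 595, 194, 850 and 177 CPM in runs 1 to 4, against 23.3, 29.9, 36.2 and 36.2 CPM in other neurons (3.64 ± 0.26, adjusted p = 1.58e-21 by edgeR's quasi-likelihood test, 4 of 4 runs). TrissinR, the receptor of Trissin itself, had 24.8, 0, 0 and 2.46 CPM there, against 32.8 CPM on average in other neurons. These are 2 UMIs, a ratio of 0.0742 with a Poisson interval of 0.00899 to 0.268 (fitted difference -3.52 ± 0.73, adjusted p = 0.000143). CNMaR was lower in Trissin cells too (-1.58 ± 0.51, adjusted p = 0.0213), but not past the threshold without run 2 (-1.36) or 3 (-1.39) or with DESeq2 (-1.65). Of the 24 Trissin cells, 14 lay in clock cluster 274, which as a whole had Pdfr at 411, 451, 578 and 423 CPM in runs 1 to 4. The Pdfr and CNMaR contrasts thus include the level of that cluster, and a difference within it was not tested.

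Pdf cells were lower in Pdfr than CNMa and Trissin cells, but above other neurons. In runs 1, 2, 3, 4 and 6 they had 41.5, 50.8, 84.6, 69.2 and 143 CPM, against 23.5, 30.1, 36.6, 36.5 and 28.7 CPM (1.44 ± 0.33, adjusted p = 0.000313 by edgeR's quasi-likelihood test, 5 of 5 runs). The Pdf cells of these runs held 5, 5, 36, 9 and 2 Pdfr UMIs, so the highest value (run 6) is 2 UMIs. The difference rested on cells of the clock clusters, since outside them it was 0.04 ± 0.57 (adjusted p = 0.974), and it did not pass without run 3 (1.30, adjusted p = 0.0903). In pooled counts Pdfr was at 159 CPM in the 11 Pdf cells of the clock clusters and at 15.2 CPM in the 22 elsewhere.

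Dh31-R was higher in Pdf cells in 4 of 5 runs, at 33.2, 0, 35.3, 69.2 and 215 CPM, against 17.3 CPM on average in other neurons (1.65 ± 0.38, adjusted p = 0.000347 by edgeR's quasi-likelihood test). These values rest on 4, 0, 15, 9 and 3 UMIs, the last in a total of 13984 UMIs. Dh31-R passed outside the clock clusters as well (2.03 ± 0.49, adjusted p = 0.00148). CCHa1-R passed at 22.8 against 8.62 CPM (2.29 ± 0.43, 3 of 5 runs), though not without run 1 (1.61) or 3 (1.86) nor with DESeq2 (1.63). It had 8, 1, 16, 0 and 0 UMIs in the Pdf cells of these runs. TrissinR had 0 UMIs in 788401 UMIs of Pdf cells, at least 8.57-fold lower than the 32.6 CPM of other neurons with a floor of 3 UMIs over the group. CNMaR had 2 UMIs, a ratio of 0.0719 with a Poisson interval of 0.00871 to 0.2598, and passed (-3.33 ± 0.75), though not without run 3 (-2.33, adjusted p = 0.118). The many UMIs of Pdf itself lower the CPM of other genes in these cells. With the 6 peptides left out of the totals, 7 of 24 pairs of a peptide and a receptor passed the sign-flip test, as before. Over 5 runs that test cannot pass for Pdf cells, so it did not test the part of these UMIs in their lower values.

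Dh31 cells were slightly higher in 3 receptors in every run. Pdfr had 46.4, 59.9, 82.1, 70.9, 62.9, 64.9 and 50.3 CPM in Dh31 cells, against 22.2, 28.4, 33.9, 34.9, 27.0, 26.6 and 23.8 CPM in other neurons (1.15 ± 0.04, adjusted p = 1.56e-08 by edgeR's quasi-likelihood test). Dh31-R had 27.2, 21.3, 23.3, 18.9, 19.3, 30.0 and 20.2 CPM in Dh31 cells, against 14.7 to 18.6 CPM in other neurons (0.46 ± 0.07, adjusted p = 0.000417). CNMaR averaged 52.1 CPM in Dh31 cells and 35.05 CPM in other neurons (0.54 ± 0.04, adjusted p = 2.41e-06). Each was higher in 7 of 7 runs (exact sign-flip permutation p = 0.0156). EB ring neurons, in which the same 3 receptors were called higher, supplied 862 of the 3962 Dh31 cells. Their part in these differences was not tested.

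Within the clock clusters, Dh31 cells had more Pdfr than the other clock neurons (502 against 259 CPM; 1.05 ± 0.13, adjusted p = 0.000333) but less CNMaR (10.1 against 73.3 CPM; -2.64 ± 0.53, adjusted p = 0.00527). Dh31 cells outside the clock clusters had a CNMaR difference of 0.57 ± 0.04 from other neurons there. Of the 42 CNMa cells, 25 are also Dh31 cells of the clock clusters, so the groups share cells and are not independent. Those 25 lie in cluster 274, so the contrast among clock neurons also includes the difference between the clock clusters. A difference within cluster 274 was not tested.

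ITP cells stood out by CCHa1-R. They had 30.8, 21.4, 34.0, 51.7, 42.5 and 16.8 CPM in runs 1 to 6, against 7.68 to 10.3 CPM in other neurons (2.19 ± 0.24, adjusted p = 4.44e-05 by edgeR's quasi-likelihood test, 6 of 6 runs). Among cells outside the clock clusters it was 2.32 ± 0.25 (adjusted p = 3.87e-05). The 13 ITP cells of the clock clusters had 0 UMIs of CCHa1-R, and the 175 elsewhere 171 UMIs (40.3 CPM). Of these 171 UMIs, 158 were in the 39 ITP cells of the insulin-producing cluster. CNMaR was also higher in ITP cells, at 118, 33.3, 85.4, 95.6, 64.8 and 47.0 CPM, against 31.2 to 43.1 CPM in other neurons (1.26 ± 0.20, adjusted p = 0.000517), but with a limit of 10 UMIs this was 0.71 (adjusted p = 0.0532).

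Pdfr in ITP cells divided the other way. Over all ITP cells it was 61.5 against 30.6 CPM (1.19 ± 0.25, adjusted p = 0.00296), but outside the clock clusters -0.63 ± 0.38 (adjusted p = 0.208), and with a limit of 10 UMIs 0.77 (adjusted p = 0.0630). In pooled counts it was at 584 CPM in the 13 ITP cells of the clock clusters and at 18.6 CPM in the 175 elsewhere. TrissinR passed in ITP cells (55.1 against 31.8 CPM; 0.82 ± 0.26, adjusted p = 0.0244), but not without run 1 (0.78), 2 (0.61) or 6 (0.64) or at 10 UMIs (0.42).

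CCHa1 cells passed for none of the 4 receptors by edgeR's quasi-likelihood test. CCHa1-R, their own receptor, was at 4.01, 25.3, 22.7, 13.7, 3.99, 4.17 and 0 CPM, 10.6 ± 10.1 CPM against 9.16 CPM in other neurons (0.49, adjusted p = 0.658). In pooled counts the 12 cells of the clock clusters had 83.6 CPM of CCHa1-R and 302 CPM of Pdfr, and the 154 elsewhere 6.3 CPM of CCHa1-R. The clock cells are too few per run for a comparison of their own.

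**Figure D4:**
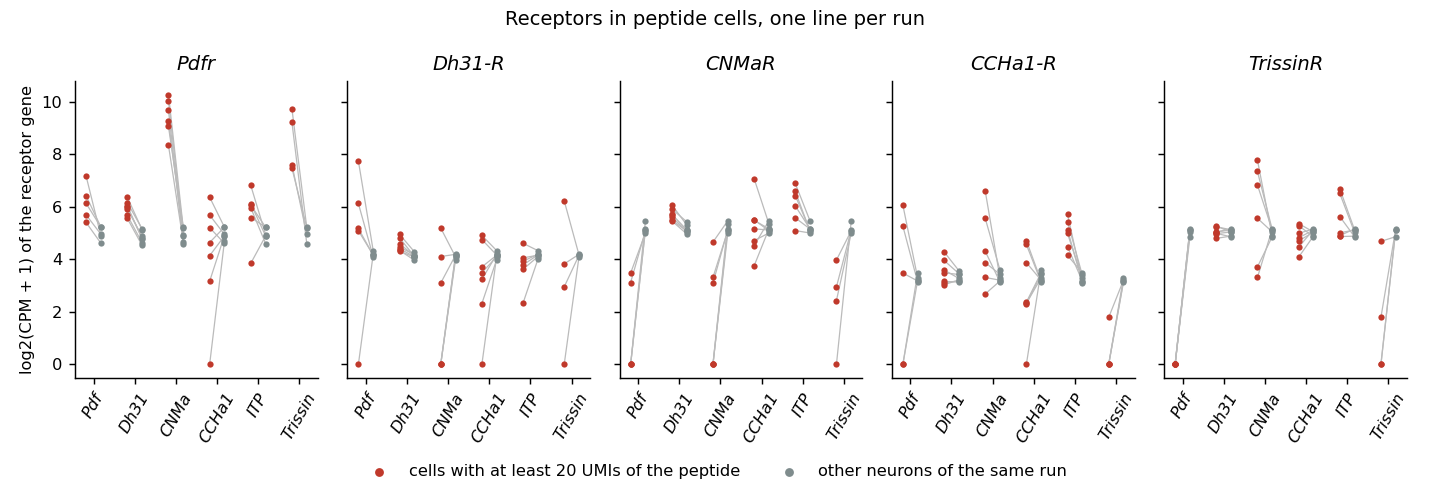
Receptor levels as log2(CPM + 1) in peptide cells (left) and other neurons of the same run (right), 1 line per run, for 4 receptors of the members and TrissinR. The Pdfr lines of CNMa cells (325 to 1247 CPM) and Trissin cells (177 to 850 CPM) all fall steeply toward other neurons (22.9 to 36.2 CPM), and those of CNMaR in CNMa cells run upward.

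The lists of clock, peptide processing, transmitter, other peptide and other receptor genes were read by counts of members past the threshold beside the shares of all genes given above. Of the 10 clock genes (Clk, cyc, per, tim, cry, vri, Pdp1, cwo, gl and Rh7), 8 were higher and 0 lower in CNMa cells, 6 higher and 1 lower in Pdf cells, 6 higher and 0 lower in Trissin cells, 5 higher and 1 lower in Dh31 and in ITP cells, and 4 higher and 0 lower in CCHa1 cells. The median log2 difference was 3.83 in CNMa cells, where the median of all genes was -0.23, 2.53 in Pdf cells (all genes -0.23) and 1.57 in Trissin cells (all genes -0.27). It was 0.51 in CCHa1 cells, 0.32 in ITP cells and 0.31 in Dh31 cells, with all genes at -0.05, -0.10 and -0.01. The transcription factor gene gl was at 219 CPM in CNMa cells, against 0.889 CPM in other neurons, and had 0 UMIs in Pdf, Trissin, ITP and CCHa1 cells. It was also higher in Dh31 cells (2.16 ± 0.39), with 177 UMIs (207 CPM) in the 46 of the clock clusters and 63 UMIs (1.18 CPM) in the 3916 elsewhere. Of the 42 CNMa cells, 25 were also Dh31 cells. Outside the clock clusters the difference in Dh31 cells was 0.51 ± 0.38 and did not pass (adjusted p = 0.360 by edgeR). Of the genes that were lower, Rh7, an opsin, was lower in Pdf cells (-2.09), and Pdp1, a clock transcription factor, was lower in ITP cells (-0.74) and slightly in Dh31 cells (-0.10).

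Genes of peptide maturation rose in 5 of the 6 groups. Of 8 tested, 7 were higher and 1 lower in ITP cells, 6 higher and 2 lower in Dh31 cells, 5 higher and 0 lower in each of Pdf, CNMa and Trissin cells, and 0 in either direction in CCHa1 cells. The median was 2.04 in Trissin cells, 1.25 in ITP cells, 1.16 in Pdf cells, 0.72 in CNMa cells, 0.33 in Dh31 cells and -0.01 in CCHa1 cells. dimm, a transcription factor of the secretory program of large peptide cells, was higher by 5.91 in Trissin cells, 4.76 in ITP cells, 4.69 in Pdf cells and 3.33 in CNMa cells on the log2 scale.

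Transmitter genes were mostly lower, as they were in the cell types, where 3 to 5 of 5 passed as lower. Of 5 tested, 5 were lower in Pdf and in Trissin cells, 4 in ITP cells and 3 in CCHa1 cells, with 0 higher. In CNMa cells 4 were lower but VGlut, the vesicular glutamate transporter, was higher (6586 against 711 CPM; log2 difference 3.08). In Dh31 cells Gad1 (0.87) and VGAT (0.35), which make and load GABA, were higher and 3 were lower. EB ring neurons, which are GABAergic, supplied 862 of the 3962 Dh31 cells.

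**Figure D5:**
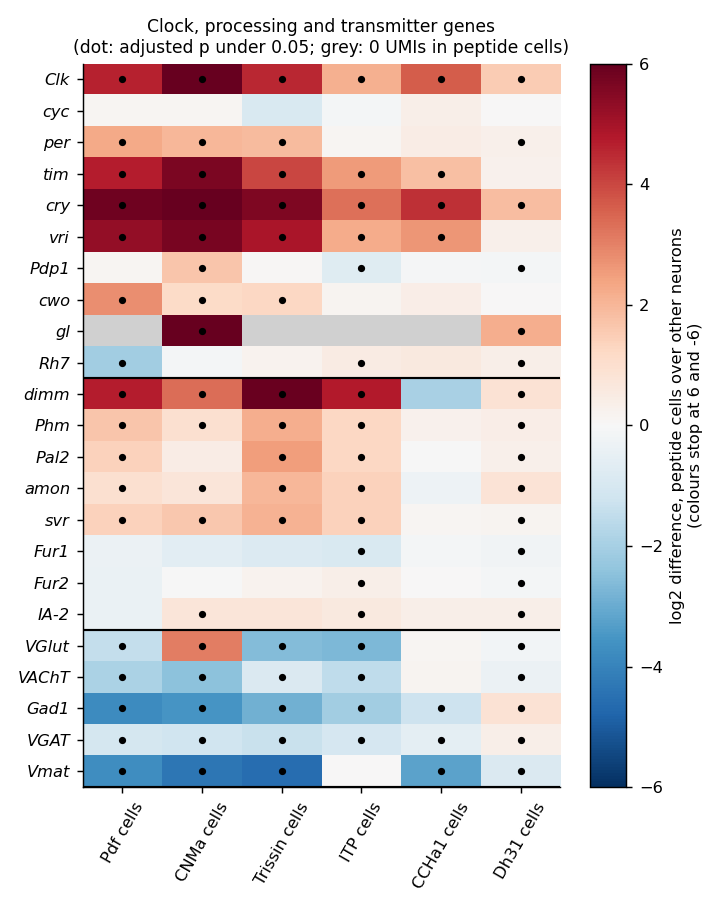
Fitted log2 differences of clock, processing and transmitter genes between peptide cells and other neurons (colours stop at 6 and -6, dots mark an adjusted p under 0.05, grey marks 0 UMIs in the peptide cells). VGlut is higher in CNMa cells (3.08), dimm is higher in Pdf (4.69) and ITP cells (4.76), and gl has 0 UMIs in Pdf, Trissin, ITP and CCHa1 cells.

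Other peptide genes were lower on the whole, apart from a few partners. This was not particular to peptide cells. Of the 23 tested, 7 were lower in insulin-producing cells, 14 in clock neurons and 18 to 23 in the other cell types. Of 23 tested, AstC (5.93; 9807 against 185 CPM) and Proc, encoding proctolin (1.56), were higher in CNMa cells and 16 were lower. AstC (5.87; without run 2 1.89 and not past the threshold), Gpb5 (3.29) and sNPF (1.42) were higher in Trissin cells and 16 lower, and Gpb5 (1.83) and Ilp3 (2.26) were higher in Pdf cells and 16 lower. ITP cells had 6 higher (Crz with 29974 against 281 CPM, and on the log2 scale Ms 5.11, Lk 4.35, sNPF 3.43, Tk 3.41 and Gpb5 3.12) and 13 lower. Dh31 cells had 4 higher (NPF 4.76, Mip 2.66, CCHa2 1.18 and Nplp1 0.96) and 14 lower, and CCHa1 cells had 0 higher and 18 lower. Among the members themselves, Dh31 was higher in CNMa cells (3.22; 5399 against 389 CPM), in ITP cells (4.00) and in CCHa1 cells (1.27; 1217 against 398 CPM), where it did not pass without run 2 (1.26), 4 (1.23), 6 (1.15) or 7 (1.01) or with DESeq2 (1.31). CCHa1 was higher in Dh31 cells (1.94).

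Of other peptide receptors, 22 were tested. In ITP cells 9 were higher and 2 lower, the higher ones including Lgr1, a glycoprotein hormone receptor (3.04), Lkr, the leucokinin receptor (2.74), CCAP-R (2.45) and MsR1 (2.04). Dh31 cells had 6 higher and 6 lower, Trissin cells 4 and 1, Pdf cells 3 (MsR1 1.88, AstC-R2 1.76 and InR 0.95) and 1, CNMa cells 2 (TkR86C and AstA-R1) and 6, and CCHa1 cells 1 (AstA-R1) and 1.

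Over all genes, 714 were higher and 1107 lower of 8066 tested in CNMa cells, 558 and 721 of 8938 in Trissin cells, 458 and 577 of 8567 in Pdf cells, 1752 and 1879 of 8656 in ITP cells, 1338 and 1472 of 8574 in Dh31 cells and 128 and 235 of 8126 in CCHa1 cells. With library sizes without TMM factors the split was 356 and 873 in Trissin cells, 272 and 1303 in Pdf cells, 1281 and 2788 in ITP cells, 795 and 932 in CNMa cells, 1324 and 1394 in Dh31 cells and 175 and 166 in CCHa1 cells. With DESeq2 it was 702 and 681 in CNMa cells, 467 and 375 in Trissin cells and 155 and 160 in CCHa1 cells. The balance of higher and lower genes thus moved with the scaling, but little in Dh31 cells.

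In CNMa cells the leading genes were CG34247 (8.88), CR45566 (8.05), gl (7.85), nrv1, a sodium pump subunit (6.61; 468 against 4.20 CPM), and cry (6.56; 547 against 5.24 CPM). In Pdf cells they were ade3, a purine synthesis gene (6.77), nrv1 (5.92; 232 against 4.11 CPM), cry (5.84; 256 against 5.22 CPM), CG12278 (5.24) and CG13054 (5.19). nrv1 and cry led in both groups. In Trissin cells they were CG13056 (10.42; 897 against 0.385 CPM), Nplp3 (8.01), CG17777 (7.05; 1668 against 11.5 CPM), CG12278 (6.06) and CG15394 (5.85).

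In ITP cells CG13996 (10.01; 481 against 0.499 CPM), cln3 (9.74), CG32040 (9.56), alphaTub85E, a tubulin gene (9.08), and CR45553 (8.59) led. In CCHa1 cells the leading differences were smaller and included transcription factor genes. They were CG34340 (2.47; 83.8 against 13.1 CPM), hec (1.93; 30.0 against 7.76 CPM), tup (1.77; 122 against 26.3 CPM), Lim3 (1.77; 126 against 31.05 CPM) and mab-21 (1.70; 88.6 against 23.3 CPM). In Dh31 cells they were CG14354 (6.51), Mcm5 (6.18; 73.6 against 0.996 CPM), CG14687 (5.97; 1113 against 17.9 CPM), CG32669 (5.14) and CG14545 (5.05). CG14354, Mcm5 and CG14687 are also leading genes of EB ring cluster 137.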

How the data were processed

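Per the labels and the methods of the study, the authors counted UMIs per gene and barcode with Cell Ranger 3.1.0 on BDGP6, and the deposited values are these raw counts without normalization. Gene positions were taken from an Ensembl annotation of BDGP6, and the symbols of CNMa and CNMaR were matched through RefSeq synonyms. In the deposited table of lines per run, 2 further columns were not used.

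Of 164038 barcodes, 157482 had 200 or more genes and no more than 30% mitochondrial UMIs. Scrublet (scanpy 1.11.5) removed 13910 doublets, 0.521% to 17.5% per run, and runs 1, 6 and 7 took the threshold of run 5, a choice made after the automatic counts had been seen. The rates expected from the number of barcodes were 7.52% to 28.1%, above the removed share in every run. Undetected doublets may thus remain. Clusters (58 principal components, 15 neighbours, Louvain at resolution 8) used 977 variable genes, without the members. Types were named from marker lists.

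Raw counts were summed per run and group and fitted in edgeR 4.0.16 (limma 3.58.1, R 4.3.3) by quasi-likelihood with TMM factors, filterByExpr, run as a block and Benjamini-Hochberg adjustment over all genes. A type needed 5 cells per run and a peptide group 3 cells per run, each in at least 4 runs. The sign-flip test used log2(CPM + 1). The block pairs sums of the same library and animals. In 17 of 20 comparisons the deviations of both sums correlated by over 0.1 in all runs (r between -0.336 and 0.843). On simulated data the fit recovered 3.00% of 2-fold and 56.1% of 4-fold changes in the Pdf comparison. It recovered 67.4% and 99.0% in the Dh31 comparison and 44.9% and 90.9% in that of clock neurons. False calls made up 4.92%, 3.61% and 6.94% of the calls in these comparisons. In the simulation the Pdf comparison thus missed most 2-fold changes, and its count of passing genes may be limited by this. The simulated counts had a single dispersion of 0.1 and no run effects, so the rates in the data may differ.

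Named genes are, per peptide group, the 5 largest positive differences among those past 0.05 and higher in every run, per receptor the 3 most correlated genes, and the fixed lists. Alternatives were library sizes without TMM factors, DESeq2 1.42.0, no filter, no block, each run left out, resolutions 4 and 16, limits of 10 and 50 UMIs or 0.2% of a cell, a 20% mitochondrial limit, doublets kept and a pseudocount of 10 CPM. Restrictions to clock clusters, to cells outside them, to neuronal clusters and to the insulin-producing cluster, and totals without the 6 peptides, were added after seeing the data. Members and lists were chosen with earlier results of these data known. Intervals are at the 95% level and cover counting error only.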

Additional observations from a re-analysis of the deposited data

Results flagged for a closer look

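In groups of 6 or 7 runs, 1 run stood apart from the others in 6 of 88 sets of member levels examined, where chance alone gives about 1 in 20. Dh31 in clock neurons was at 2706 CPM in run 7, against 184 to 976 CPM in the other runs, with 5 Dh31 cells there. Trissin over all cells was at 370 CPM in run 4, against 0.476 to 129 CPM, and at 347 CPM in neurons other than clock neurons, against 0.365 to 111 CPM. CNMaR in non-PAM dopaminergic neurons was at 20.97 CPM in run 2, below the 33.2 to 41.7 CPM of the others. CCHa1-R in run 6 was at 14.8 CPM in astrocyte-like glia, against 0 to 5.17 CPM, and at 51.3 CPM in perineurial glia, against 0 to 3.82 CPM. The part of single cells in these values was not tested.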

How the results depend on the processing

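Of single receptor differences between types, 734 values under alternatives kept their side of the threshold. A further 18 passed it anew, 23 lost it and 1 reversed, CCHa1-R in insulin-producing cells at resolution 16 (-0.95). Of single genes in peptide cells, 3575 values kept their direction and side of the threshold, 305 lost the threshold and 6 reversed. Of the sign-flip differences of receptors 186 kept their side of the threshold, 24 lost it, 1 passed it anew and 1 reversed. A change of direction was counted only where the main or the alternative value passed. The 734 and 186 values may thus include changes of direction that did not pass. Outside the clock clusters the fitted log2 difference turned to -1.55 for vri in CCHa1 cells, -0.34 for CNMa in Dh31 cells, -0.049 for CCHa2-R and -0.63 for Pdfr in ITP cells and -2.82 for Ilp3 in Pdf cells. CrzR in ITP cells was at -0.029 in neuronal clusters only, and the sign-flip difference of CNMaR in ITP cells at 10 UMIs was -0.27. The cause was not tested.

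Genes higher in CCHa1 cells numbered 211 at 50 UMIs and 83 to 229 with 1 run left out. They numbered 350 in CNMa and 288 in Dh31 cells among clock neurons only, 429 in Dh31 cells without the run block, and 187 in ITP cells within the insulin-producing cluster. In Pdf cells they numbered 272 without TMM, 227 outside the clock clusters and 210 to 505 with a run left out, and in Trissin cells 356 and 265 to 637. With a run left out they were 529 to 793 (CNMa), 1096 to 1334 (Dh31) and 1513 to 1632 (ITP), and 36 to 42 receptor pairs passed. Peptide cells numbered 83 (CCHa1), 1821 (Dh31) and 109 (ITP) at 50 UMIs, 6235 (Dh31) and 358 (ITP) at 10 UMIs, and 472 (ITP) and 77 (Pdf) at 0.2% of a cell. With a run left out, cells numbered 125 to 159 (CCHa1), 31 to 41 (CNMa), 3002 to 3775 (Dh31), 119 to 186 (ITP), 24 to 32 (Pdf) and 17 to 24 (Trissin). Trissin at 50 UMIs left too few runs for a comparison. Few cells per run limit Pdf and Trissin, whose sign-flip tests over 5 and 4 runs cannot go below 0.0625 and 0.125.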
